A study of Mus musculus with 4 samples.

Results

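Early committed myoblasts, here cells with Myog RNA that were outside the cell cycle and held little sarcomere RNA, were described in single myogenic progenitor cells (MPs) of regenerating mouse muscle. A cell was included when it had at least 5000 UMIs (unique molecular identifiers, 1 for each captured RNA molecule), at least 1000 genes, at most 10% mitochondrial UMIs and no UMI of Cd74. It also needed, per 10000 of its UMIs, at least 3 of Myog, under 100 of the 6 sarcomere genes Myh3, Myh8, Tnnc2, Mybph, Acta1 and Mylpf summed, and under 2 of the 5 cycle genes Top2a, Mki67, Cenpf, Rrm2 and Tyms summed. At most 1 Pax7 UMI was allowed. These limits selected 905 of 7877 cells within the quality limits, of which 362 and 193 came from the Pax7Cre replicates 1 and 2. The miR-501KO replicates gave 168 and 182 cells. Since the cells were chosen on these counts, their levels against other cells are given as a description and without a test. Genotype was not used in the choice, so differences between genotypes were tested. The limit on Cd74 can still act unequally on the genotypes. The study reports a cluster of cells high in Myog and Cd74 that its single-cell data held only in the knockout. Whether the cells removed here belong to that cluster was not tested, and the tests cover cells without Cd74 UMIs.

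After muscle injury, satellite cells that carry Pax7 leave quiescence, divide as myoblasts, and then exit the cycle under myogenic transcription factors. Myogenin, the product of Myog, is the factor that marks commitment to terminal differentiation. Committed cells arrest through inhibitors of cyclin-dependent kinases such as p57 (Cdkn1c) and p21 (Cdkn1a). They fuse through the membrane proteins myomaker (Mymk) and myomixer (Mymx), and they build sarcomeres.

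The cells came from tibialis anterior muscles of both hindlimbs of 12-week-old mice, taken 6 days after cardiotoxin, a venom toxin that kills myofibers, had been injected into the muscle. They were sorted by FACS as α7-integrin+ cells without CD45, CD31 and Sca1, and each library pooled 3 mice. There were 2 libraries of Pax7Cre mice and 2 of miR-501KO mice, in which the same Pax7-driven Cre deleted a floxed miR-501 precursor in the myogenic lineage. The Cre allele was therefore shared by both groups, and it was not inducible. Replicate 1 of each group was made in 1 experiment and replicate 2 in another.

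The miRNA itself is not read by these 3′ gene counts, so its loss could not be checked in the libraries. The mature strand that the study follows is shown because its seed, bases 2 to 8 in capitals, defines the sites searched for at the end. It lies on the minus strand at chrX:7241270-7241291 (RefSeq, GRCm38.p6), in an intron of Clcn5, the gene of a chloride transporter.
miR-501-3p: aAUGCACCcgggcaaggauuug

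Early committed cells held 12116722 and 7772878 UMIs in all in the Pax7Cre libraries. In the miR-501KO libraries they held 5213111 and 6457741, with medians over the 4 libraries of 28316 to 39762 UMIs and 5161 to 5704 genes per cell. miR-501KO replicate 1 stood apart from the other 3 libraries. The limit on Cd74, the MHC class II invariant chain of antigen-presenting cells, removed 37.4% of its cells, against 9.02 to 12.2% in the others. It held 201 cells that met every limit but that on Cd74, where the others held 15 to 28, and 16.7% of its early committed cells had under 10000 UMIs, against 0.518 to 5.49%. Of all the early committed cells, 2 had a barcode that occurred in another library (0.221%). Replicates of a genotype were distinct libraries, since their summed counts differed with a chi-square of 8.74 per degree of freedom for Pax7Cre and 9.73 for miR-501KO.

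All 7 marker genes of the early committed state were present in the selected cells of every library. Levels are given as CPM, the UMIs of a gene per 1000000 UMIs summed over the cells. Myog, on which the cells were chosen, was at 4357 and 4023 CPM in Pax7Cre and 3523 and 4539.7 CPM in miR-501KO. Cdkn1c was at 10168 and 9941 CPM in Pax7Cre and 7178 and 8760.0 CPM in miR-501KO, so both knockout libraries lay below both controls. Actc1, the cardiac α-actin that embryonic and regenerating muscle uses, was at 2607 and 2420.2 CPM in Pax7Cre and 1989 and 2791 CPM in miR-501KO. Here the controls lay between the knockout libraries. Mymx was at 695 and 582 CPM in Pax7Cre and 559 and 647 CPM in miR-501KO. Mymk was at 484 and 464 CPM in Pax7Cre and 466 and 505 CPM in miR-501KO. Both fusion genes overlapped between the groups. Rbm24, an RNA-binding protein of muscle splicing, was at 389 and 385 CPM in Pax7Cre and 433 and 389 CPM in miR-501KO. Fndc5, the precursor of the secreted peptide irisin, was at 204 and 182 CPM in Pax7Cre and 183 and 190.5 CPM in miR-501KO. The Rbm24 and Fndc5 values of the 4 libraries lay close together.

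Of the 7 markers, 4 had an entry in the RefSeq promoter table (GRCm38.p6), and 2 of these are shown because their 250 bases upstream of the gene start differ in the myogenic motifs they hold. Capitals in the Myog promoter (chr1:134289754-134290003, plus strand) mark the E-box CANNTG, the core bound by myogenic bHLH factors, which starts 138 and 12 bases upstream. Capitals in the Actc1 promoter (chr2:114052876-114053125, minus strand) mark a CArG box, the motif of serum response factor, which starts 47 bases upstream.
Myog promoter: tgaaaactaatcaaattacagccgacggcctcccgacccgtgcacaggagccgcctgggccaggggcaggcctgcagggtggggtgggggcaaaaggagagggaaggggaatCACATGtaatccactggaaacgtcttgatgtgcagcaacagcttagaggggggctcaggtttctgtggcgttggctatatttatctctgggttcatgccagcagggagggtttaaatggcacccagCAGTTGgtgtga
Actc1 promoter: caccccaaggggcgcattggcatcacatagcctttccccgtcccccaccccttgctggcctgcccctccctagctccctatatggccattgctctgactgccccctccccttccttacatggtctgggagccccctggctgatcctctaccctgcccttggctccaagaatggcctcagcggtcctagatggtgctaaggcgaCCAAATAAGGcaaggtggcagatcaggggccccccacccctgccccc
A CANNTG, which reads the same on both strands, occurred in 66.0% of the 27025 promoters of that length in the table, at least 2 in 31.7%, and a CArG box on either strand in 378 promoters. The Rbm24 promoter held 2 CANNTG and that of Fndc5 none. These matches say which letters are present and not whether a factor bound them.

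**Figure D1:**
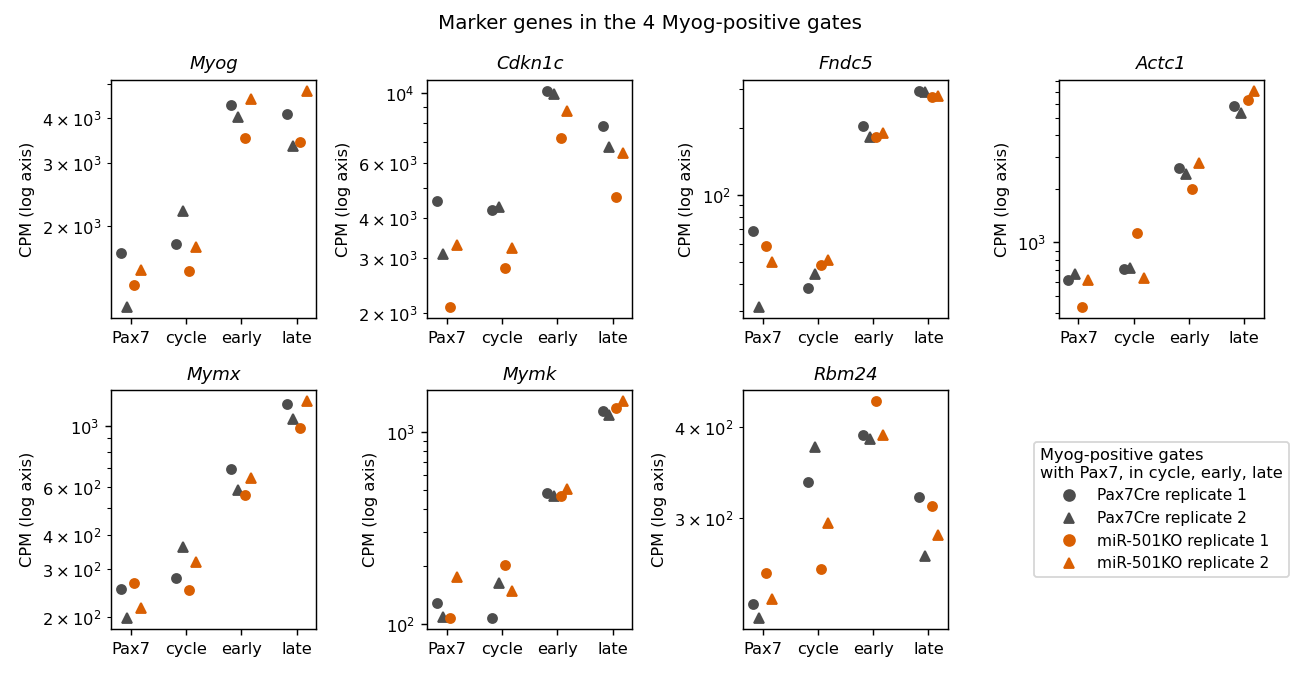
CPM (log axis) of the 7 marker genes in the 4 groups of Myog-positive cells, with 1 point per library (circles, replicate 1 and triangles, replicate 2, in grey for Pax7Cre and orange for miR-501KO). In early committed cells Mymk sat between 464 and 505 CPM, under the late committed cells in all 4 libraries and above the cells in cycle or with Pax7.

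Single early committed cells differed widely in some of these genes. Cdkn1c had a variance to mean ratio over cells, after thinning each to 5000 UMIs, of 19.6 to 23.2 in the 4 libraries, and Actc1 of 11.9 to 16.1. The ratio was 7.57 to 9.53 for Myog, 2.70 to 3.62 for Mymx and 2.66 to 3.15 for Mymk. The median was 1.17 over 1232 genes with a mean of at least 0.5 UMIs per thinned cell, which were not matched to the markers by abundance. Per 10000 UMIs, the 10th and 90th percentiles of Cdkn1c were 11.5 and 198 in Pax7Cre replicate 1. In miR-501KO replicate 1 they were 5.40 and 144. The sarcomere sum was low in most cells, with medians over the 4 libraries of 1.80 to 3.62 per 10000 UMIs, far below the limit of 100. Its 90th percentile was 34.7 and 18.9 in Pax7Cre replicates 1 and 2. In miR-501KO replicates 1 and 2 it was 43.2 and 47.3, so both knockout libraries lay above both controls.

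Cells just inside and just outside the limits were close in some genes and apart in others. The 44 cells with 3 to 5 Myog UMIs per 10000 had 2009 CPM of Cdkn1c and 16.3 CPM of Mymk. The 110 cells just below, with 1 to 3, had 1879.7 and 10.0 CPM, in the same order. At the sarcomere limit, 56 cells with a sum of 50 to 100 had 913 CPM of Mymk, and 38 cells with 100 to 150 had 1097. The 128 cells just inside the cycle limit had 6464 CPM of Cdkn1c, and the 52 just outside had 5529.7. The 113 cells with 1 Pax7 UMI had 253 CPM of Mymk, and the 48 cells with 2 had 70.7 CPM.

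RNA of both fusion genes was common. After thinning each cell to 5000 UMIs, so that depth could not set the share, 59.7% (95% Wilson interval 54.5 to 64.6) and 52.8% (45.8 to 59.8) of the early committed cells of Pax7Cre replicates 1 and 2 held at least 1 UMI of both Mymk and Mymx. The share was 44.0% (36.8 to 51.6) and 57.1% (49.9 to 64.1) in miR-501KO. The mean share was 56.3% ± 3.41 (SEM, n = 2) in Pax7Cre and 50.6% ± 6.55 in miR-501KO (p = 0.667, two-sided exact permutation test). By run, the knockout was lower by 15.6 points in run 1 but higher by 4.29 points in run 2. Without miR-501KO replicate 1 the difference was 0.884 points, in the other direction. Unthinned, 66.1 to 82.6% of the cells held both. In late committed cells the thinned share was 94.8 to 100%, in Myog-positive cells in cycle 22.3 to 36.3%, and in those with Pax7 0 to 14.9%. Mural-like and Schwann-like cells were used as background, since they should lack both genes. They were defined by their own marker sums, few macrophage UMIs and no UMI of Myog or Pax7. Their thinned share was 0 in every library. Because cells with Myog or Pax7 were left out of them, a share near 0 was partly set in advance. Unthinned, the mural-like cells of Pax7Cre replicate 1 had 1.59%. The largest of these groups, 66 mural-like cells of miR-501KO replicate 1 with a median of 16556 UMIs, allows a share of up to 5.50% by the same interval. These intervals cover counting error only.

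Late committed cells were taken as cells with the same limits but a sarcomere sum of at least 100 per 10000 UMIs (77, 19, 43 and 29 cells in Pax7Cre replicates 1 and 2 and miR-501KO replicates 1 and 2). Their medians of 44861 to 70973 UMIs were 1.58 to 1.85 times those of the early committed cells. Among 3135 genes with a mean of at least 50 CPM in either group, with the genes of the limits left out, 136 (4.34%) were at least 2-fold higher and 230 (7.34%) at least 2-fold lower in early committed cells in 4 of 4 libraries. Log2 ratios are of CPM with a pseudocount of 1, taken within each library.

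The largest group of genes lower in early than in late committed cells was that of the contractile apparatus. Of 28 further sarcomere genes, 24 were 2-fold lower in 4 of 4 libraries (median log2 ratio -3.43, where all genes had 0.14). The 2 groups were split on the sarcomere sum, so genes of the same programme had to follow it. The lowest were Tnnc1, the troponin C of slow and cardiac muscle (mean log2 ratio -6.63), Itgb1bp2, the integrin partner melusin (-6.55), Myoz2, a Z-disc calsarcin (-6.44), Smpx (-5.72), Casq2, a calcium store of the sarcoplasmic reticulum (-5.57), Trim54 (-5.34), Myom2 of the M-band (-5.32) and Sln, a regulator of the calcium pump (-5.14). Tnnc1 was at 7.68, 2.44, 31.8 and 20.9 CPM in the early committed cells of Pax7Cre replicates 1 and 2 and miR-501KO replicates 1 and 2, against 1139.5 to 1333 CPM in late ones. The genes of the giant sarcomere proteins were lower as well, by a smaller ratio. Ttn, the titin gene, was at 1663 to 2455 CPM in early committed cells and 5558 to 9823 CPM in late ones (mean log2 ratio -1.83), and Neb, which encodes nebulin, was 1.73 lower on the same scale.

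Embryonic and cardiac isoforms were lower too, in 8 of 9 genes (median -2.35). Acta2, smooth muscle α-actin, was at 3319 to 4398 CPM in early committed cells and only 0.43 lower on the log2 scale than in late ones. Tnnt2, cardiac troponin T, was at 1629 to 2037 CPM (mean log2 ratio -1.22). Excitation and contraction coupling genes were lower in 11 of 15 (median -1.85), such as Cacng1, a subunit of the muscle calcium channel (-1.85). Energy metabolism genes were lower in 9 of 16 (median -2.55), with Gapdh near equal (-0.15) and Eno3, the muscle enolase, at -2.54. Of the 6 acetylcholine receptor and postsynapse genes, 1 was 2-fold lower in every library, Chrng, the embryonic γ subunit (-1.47).

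Several groups were higher in early than in late committed cells. Secreted factors and growth factor genes were 2-fold higher in 6 of 13 (median log2 ratio 1.56). Spp1, which encodes the secreted phosphoprotein osteopontin, was at 232, 355, 322 and 407 CPM in early committed cells and at 11.3 to 24.8 CPM in late ones (mean log2 ratio 4.13). Igfbp5 and Igfbp3, binding proteins of insulin-like growth factors, had ratios of 3.16 and 3.44. Mest, an imprinted gene, was at 638 to 854 CPM against 27.3 to 105 CPM (3.54). Islr (3.70), Ramp2 (3.45), Fstl1 (3.28) and Col1a1, a collagen gene (3.19), completed the 8 genes of the largest ratio. Satellite cell markers were higher in 4 of 11 and lower in 2, and Notch1 and Notch2, receptors that hold progenitors back from differentiation, were 2.18 and 2.15 higher on the log2 scale.

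Inhibitors of the cycle differed in direction. Cdkn1a, which encodes p21, was at 396 to 520.3 CPM in early and 1504 to 1907 CPM in late committed cells (mean log2 ratio -1.89). Cdkn1c went the other way, with 4671 to 7861 CPM in late cells and a ratio of 0.50, higher in early committed cells in 4 of 4 libraries. Btg1, an antiproliferative gene, was 1.06 higher. Of the markers, Mymk was at 1232 to 1451 CPM in late cells (-1.46), Actc1 at 5314 to 7091 CPM (-1.32), Mymx 0.85 lower on the log2 scale in early cells, Fndc5 0.59 lower, and Rbm24 0.43 higher. Myog did not differ in a set direction (mean log2 ratio 0.08, from -0.08 to 0.27).

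**Figure D2:**
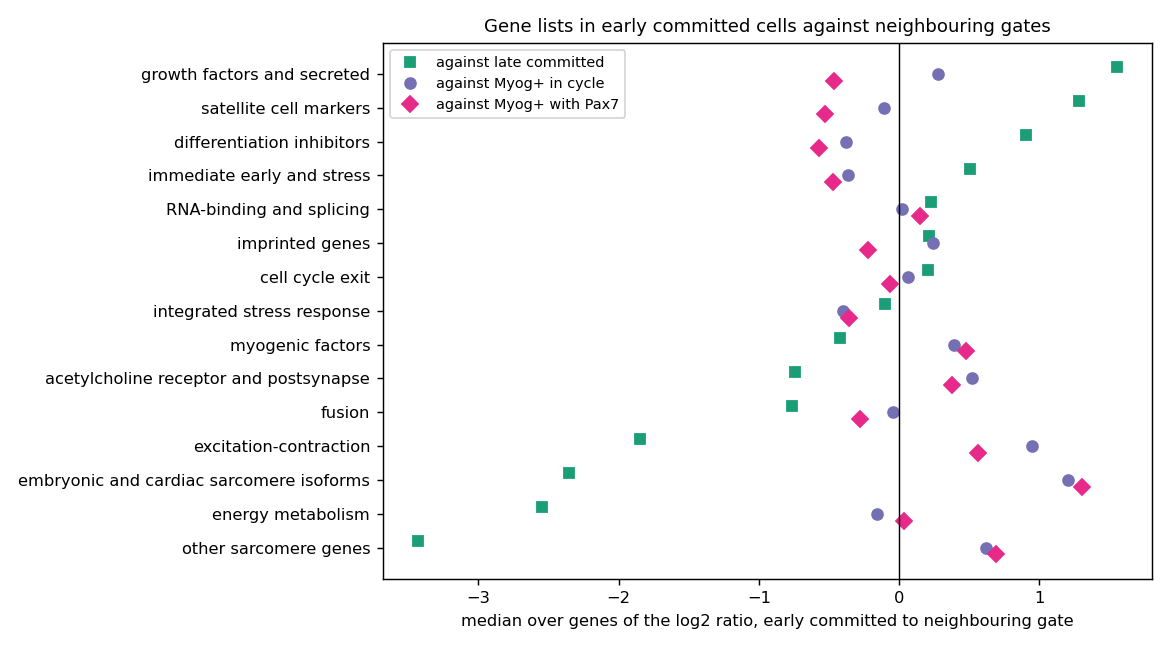
Median over the genes of each list of the mean log2 ratio between early committed cells and late committed cells (squares), Myog-positive cells in cycle (circles) or Myog-positive cells with Pax7 (diamonds). Only genes of at least 50 CPM in 1 of the groups entered, and lists with at least 5 such genes against late committed cells are drawn. The sarcomere list lay at -3.43 against late committed cells and that of secreted factors at 1.56.

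Myog-positive cells in cycle had a cycle sum of at least 2 per 10000 UMIs (94, 47, 215 and 90 cells in the same library order). In miR-501KO replicate 1 their median was 8575 UMIs, 0.303 times that of the early committed cells. In early committed cells 37 of 3170 genes (1.17%) were 2-fold higher and 183 (5.77%) 2-fold lower in 4 of 4 libraries. The 5 cycle genes that chose the cells are left out here, but other genes of the cell cycle had to follow the split. All 19 G2/M genes of at least 50 CPM were 2-fold lower (median -5.25), as were 10 of 12 G1/S genes (median -2.20). Hmmr (mean log2 ratio -6.06), Nusap1 (-6.04), Ccnb1, the mitotic cyclin (-5.97), Tpx2 (-5.91), Pbk (-5.76) and Aurkb, a mitotic kinase (-5.67), led with the histone genes H2ac24 (-5.93) and H1f5 (-5.89). Ccnb1 was at 0.772 to 2.17 CPM in early committed cells.

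The differentiation genes were higher outside the cycle. The mean log2 ratio was 2.04 for Fndc5 (from 1.88 to 2.39 over the libraries), 1.65 for Actc1 (0.82 to 2.15) and 1.65 for Mymk (1.20 to 2.16). Cdkn1c was at 2783 to 4338 CPM in the cycling cells (1.31), Myog at 1486 to 2189.8 CPM (1.20) and Mymx 1.04 lower there, while Rbm24 had a ratio of 0.35 (from 0.04 to 0.76). Mylk4, a myosin light chain kinase family member, was at 68.0 to 111 CPM in early committed cells (mean log2 ratio 2.94), and Frmd4b (2.69), Fbxl22 (2.23), Prxl2b (2.22), Arl4d (2.13), Arhgdig (2.05) and Cdc42ep3 (2.01) were higher as well. Myod1, the factor that precedes myogenin, had ratios from -0.80 to -0.00 (mean -0.34).

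Myog-positive cells with Pax7, here at least 2 Pax7 UMIs, numbered 47, 18, 25 and 24 in the same order. Here 23 of 3110 genes (0.74%) were 2-fold higher and 48 (1.54%) 2-fold lower in early committed cells in 4 of 4 libraries. Markers were among the higher genes. Apart from Myog, 5 of the 6 markers were 2-fold higher in every library, with ratios of 2.08 for Actc1, 1.90 for Mymk, 1.89 for Fndc5, 1.51 for Cdkn1c and 1.41 for Mymx, and Rbm24 stood at 0.77. Frmd4b (2.40), Klhl41, a muscle sarcomere stabilizer (2.25), Cnr1, a cannabinoid receptor (1.99), Casz1, a zinc finger transcription factor (1.85), and Mylk4 (1.83) were the other members of the 8 highest. Lower in early committed cells were Notch3 (-2.45), Itih5 (-2.36), Creb3l1 (-2.31), Vcan, a matrix proteoglycan (-2.15), Dcx (-2.12), Islr (-2.12) and Heyl, a target of Notch signalling (-2.03). Id3, an inhibitor of myogenic bHLH factors, was 1.46 lower. Growth factor and secreted genes were lower in 4 of 11 and Notch pathway genes in 2 of 7. Col1a2, a collagen gene, was 1.12 lower on the log2 scale.

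Within the early committed cells of each library, tertiles of cells by the sarcomere sum were compared. The highest tertile held sums of 3.49 to 99.7 per 10000 UMIs, with median depths over the libraries of 27725 to 36119.5 UMIs in the lowest and 32179 to 45335 in the highest. Between the highest and the lowest tertile, 58 of 3080 genes (1.88%) were at least 2-fold higher and 38 (1.23%) at least 2-fold lower in 4 of 4 libraries. Mymk was at 228, 188, 174 and 212 CPM in the lowest tertile and at 744, 651, 803 and 776 CPM in the highest, in library order. Actc1 stood at 889 to 1287 CPM in the lowest and 3408 to 4326 CPM in the highest tertile, and Cdkn1a at 160.3 to 215 and 622 to 818 CPM. Rbm24 was at 348 to 438 and 391 to 478 CPM. Lmod2 and Lmod3, leiomodins that nucleate actin filaments, had mean log2 ratios of 4.81 and 3.88. Unc45b, the chaperone of muscle myosin, had 4.15, Ckm, muscle creatine kinase, 3.77, Mef2c, a partner of the myogenic factors, 3.72, and Filip1 (3.46), Myl4 (3.27) and Myl1 (3.22) followed. Ncald (-2.85), Spp1 (-2.28), Islr (-2.17), Sulf1 (-2.07), Ramp2 (-1.98), Igfbp5 (-1.92), Nrk (-1.90) and Plxna2 (-1.88) were lower in the highest tertile. Spp1, Islr, Ramp2 and Igfbp5 were also among the genes highest in early against late committed cells. Because the tertiles were made from the sarcomere sum, genes of the same programme had to follow it.

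**Figure D3:**
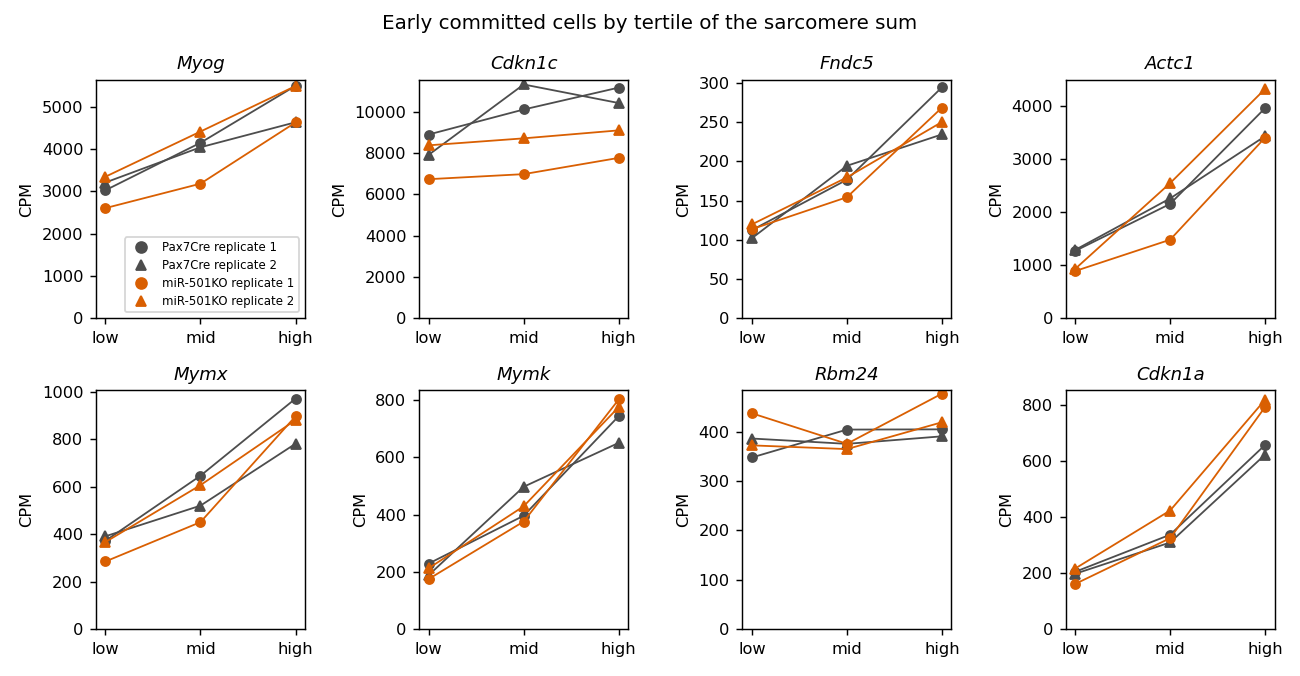
CPM of the 7 markers and Cdkn1a in the low, mid and high tertile of the sarcomere sum among early committed cells, with 1 line per library (circles, replicate 1 and triangles, replicate 2, grey for Pax7Cre and orange for miR-501KO). Mymk was at 174 to 228 CPM in the low and 651 to 803 CPM in the high tertile, while Rbm24 stayed between 348 and 478 CPM.

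The comparison between genotypes asks how the progenitor states differ once miR-501 is deleted. Early committed cells made up 13.1% (95% Wilson interval 11.9 to 14.4) and 12.7% (11.1 to 14.5) of the cells within the quality limits in Pax7Cre replicates 1 and 2. In miR-501KO they made up 9.85% (8.53 to 11.4) and 9.64% (8.39 to 11.1). Both knockout libraries lay below both controls. The means were 12.9% ± 0.184 and 9.75% ± 0.104 (SEM, n = 2 each), a difference of -3.15 percentage points, with -3.23 in run 1 and -3.07 in run 2. The exact two-sided permutation p was 0.333, the smallest that 2 against 2 libraries allow, so this design could not reach 0.05. The value depended on the limit on Cd74. With that limit dropped from cells and denominator, the shares were 12.6 and 12.1% in Pax7Cre and 13.6 and 9.499% in miR-501KO (difference -0.864 points), so that the direction turned in run 1. This alternative was chosen after the data were seen. Among Myog-positive cells the share was 58.4 and 65.0% in Pax7Cre and 35.7 and 52.3% in miR-501KO, and cells in cycle took 12.6% of all cells in miR-501KO replicate 1, against 3.10 to 4.77% in the other libraries. Shares of late committed cells were 2.02% ± 0.766 and 2.03% ± 0.493 (exact permutation p = 1). Cells per library are relative numbers, so fewer early committed cells and more of other cells could not be told apart.

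**Figure D4:**
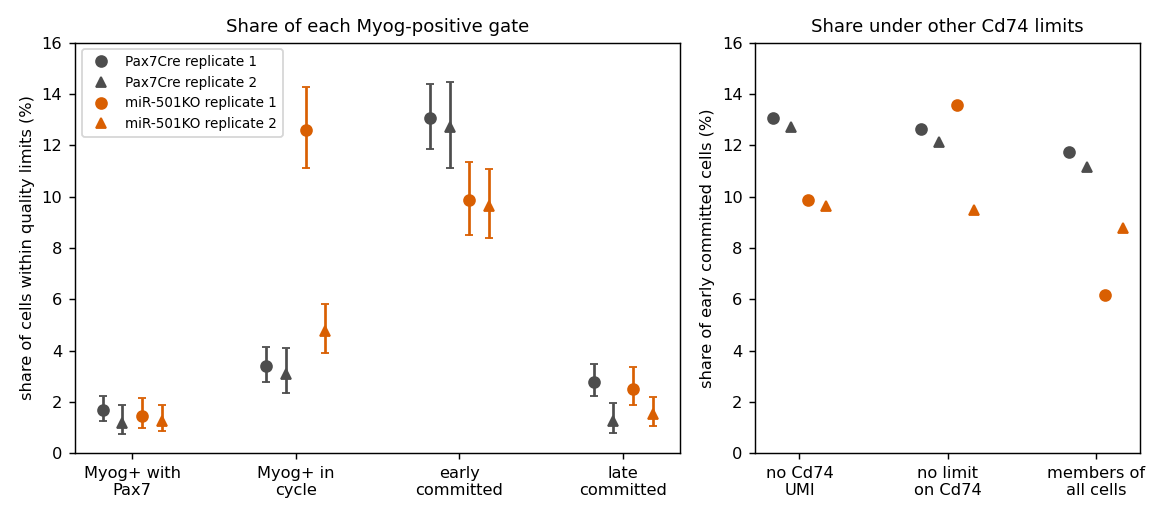
Left, share (%) of the cells within the quality limits that fell in each group of Myog-positive cells, by library, with 95% Wilson intervals as bars. Right, share of early committed cells with no Cd74 UMI allowed, with no limit on Cd74, and with the same members over all cells of any Cd74 count (circles, replicate 1 and triangles, replicate 2, grey for Pax7Cre and orange for miR-501KO). The control libraries sit at 13.1 and 12.7% and the knockout libraries at 9.85 and 9.64% in the first setting, and miR-501KO replicate 1 at 13.6% without the limit.

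Within early committed cells, 7 of 11316 genes tested were higher in miR-501KO at an adjusted p under 0.05 (0.0619%) and 0 were lower (0.0%), by edgeR's quasi-likelihood test on UMIs summed per library. At an unadjusted p under 0.05 there were 494 genes, and DESeq2 also called 7, of which 6 were shared. None of the 7 belonged to the marker list. Cdkn1c had a log2 fold change of -0.37 (SE 0.23, 95% interval -0.82 to 0.07, edgeR adjusted p = 0.999), and the other 5 markers tested lay between -0.13 and 0.04. The 95% intervals of these 5 ran from -0.54 to 0.35, so a 2-fold difference lay outside them. All 95% intervals of fold changes here use a normal approximation and a spread moderated over all genes. With 2 libraries per group they can be too narrow. Cdkn1c was lower in both knockout libraries than in both controls in the late, cycling and remaining cells too, but in the Myog-positive cells with Pax7 the groups overlapped (4550.0 and 3076 against 2088 and 3305 CPM). Clcn5, the host gene of miR-501, was at 91.3 and 102 CPM in Pax7Cre and 121 and 90.4 CPM in miR-501KO (log2 fold change 0.08, edgeR adjusted p = 0.999).

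Of the 7 genes, 3 are induced by interferons. Ifit3, an antiviral effector, was at 0.908 and 0.386 CPM in Pax7Cre and 7.67 and 4.34 CPM in miR-501KO (log2 fold change 3.01, SE 0.48, edgeR adjusted p = 0.032). Iigp1, a GTPase that attacks parasite vacuoles, was at 6.93 and 7.33 CPM in Pax7Cre and 38.9 and 18.3 CPM in miR-501KO (1.93, SE 0.27, edgeR adjusted p = 0.013). The related gene F830016B08Rik was at 0.743 and 2.19 CPM against 10.7 and 6.19 CPM (2.56, SE 0.43, edgeR adjusted p = 0.045). Both knockout libraries exceeded both controls in all 3, which were picked as called higher. Ifit3 and Iigp1 belong to gene families with similar members, and how reads were split between Ifit3 and Ifit3b or between Iigp1 and F830016B08Rik was not tested. Ifit3b just missed the threshold (edgeR adjusted p = 0.052).

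The Ifit3 promoter (RefSeq, GRCm38.p6, chr19:34583279-34583528, plus strand) is shown for its matches to the core of the interferon-stimulated response element, GAAA followed after 2 bases by GAAA. Capitals mark 2 matches on the opposite strand, which start 156 and 122 bases upstream.
Ifit3 promoter: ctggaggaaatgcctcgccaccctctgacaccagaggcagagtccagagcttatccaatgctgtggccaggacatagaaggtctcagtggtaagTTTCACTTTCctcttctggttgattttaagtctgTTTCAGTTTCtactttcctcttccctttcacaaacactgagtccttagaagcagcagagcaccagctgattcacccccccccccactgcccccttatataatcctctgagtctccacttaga
At least 1 match on either strand was present in 3.04% of all promoters and at least 2 in 0.200%. Of the 17 interferon response genes, 15 had a promoter in the table, and 9 of these held the motif.

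The other called genes belong to muscle and matrix. Thbs1, the matrix glycoprotein thrombospondin 1, was at 36.0 and 39.5 CPM in Pax7Cre and 99.7 and 93.5 CPM in miR-501KO (log2 fold change 1.31, SE 0.15, edgeR adjusted p = 0.0035). Ankrd1, a stress-responsive ankyrin repeat protein of muscle, was at 47.4 and 54.4 CPM in Pax7Cre and 122 and 148 CPM in miR-501KO (1.38, SE 0.17, edgeR adjusted p = 0.0041). Tnnc1 was at 7.68 and 2.44 CPM against 31.8 and 20.9 CPM (2.21, SE 0.33, edgeR adjusted p = 0.021). Aspn, the small leucine-rich proteoglycan asporin, was at 1.16 and 2.06 CPM against 8.63 and 7.74 CPM (2.35, SE 0.35, edgeR adjusted p = 0.021). The groups did not overlap in any of these genes, which were picked as called higher. Thbs1 and Ankrd1 lay outside the rule for named genes and were added after their values were seen. With a sarcomere sum below 50, Tnnc1 had a log2 fold change of 0.91 and was no longer called.

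Single cells held a large share of the UMIs of some of these genes. In miR-501KO replicate 1, 75.0% of the Ifit3 UMIs, 57.8% of those of Aspn, 46.2% of Ankrd1 and 38.5% of Thbs1 lay in the cell that held the most of each. In miR-501KO replicate 2 the highest cell held 96.4% of the Ifit3 UMIs and 66.1% of those of Iigp1, but 16.1% of Ankrd1 and 14.4% of Thbs1. A single cell of miR-501KO replicate 1 led 5 interferon genes, and another, with 111454 UMIs, led Thbs1, Ankrd1 and Tnnc1. When every gene was summed without its highest cell in each library, no gene was called (0 by edgeR, with 402 at an unadjusted p under 0.05). Ifit3 was then at 0.669 and 0.131 CPM in Pax7Cre and 1.99 and 0.159 CPM in miR-501KO, where the groups overlapped. Thbs1 was at 33.9 and 35.4 against 63.7 and 82.3 CPM, and Ankrd1 at 44.8 and 43.9 against 68.2 and 128 CPM. Tnnc1 was at 6.27 and 2.23 against 26.3 and 11.9 CPM, and Iigp1 at 4.68 and 4.86 against 28.8 and 6.37 CPM. Aspn was at 0.920 and 1.45 against 3.78 and 4.61 CPM, and F830016B08Rik at 0.669 and 1.18 against 4.78 and 3.34 CPM. In these 6 genes both knockout libraries stayed above both controls. They had been picked as called higher in the same data, so this order is no separate support. The share of all genes in this order was not counted. With no limit on Cd74 in the choice of cells, 0 of 11825 genes were called by edgeR (721 at an unadjusted p under 0.05). Without miR-501KO replicate 1 the count was 4. Without any other single library it was 39 to 65. The alternatives on Cd74 and on the highest cells were chosen after the data were seen.

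**Figure D5:**
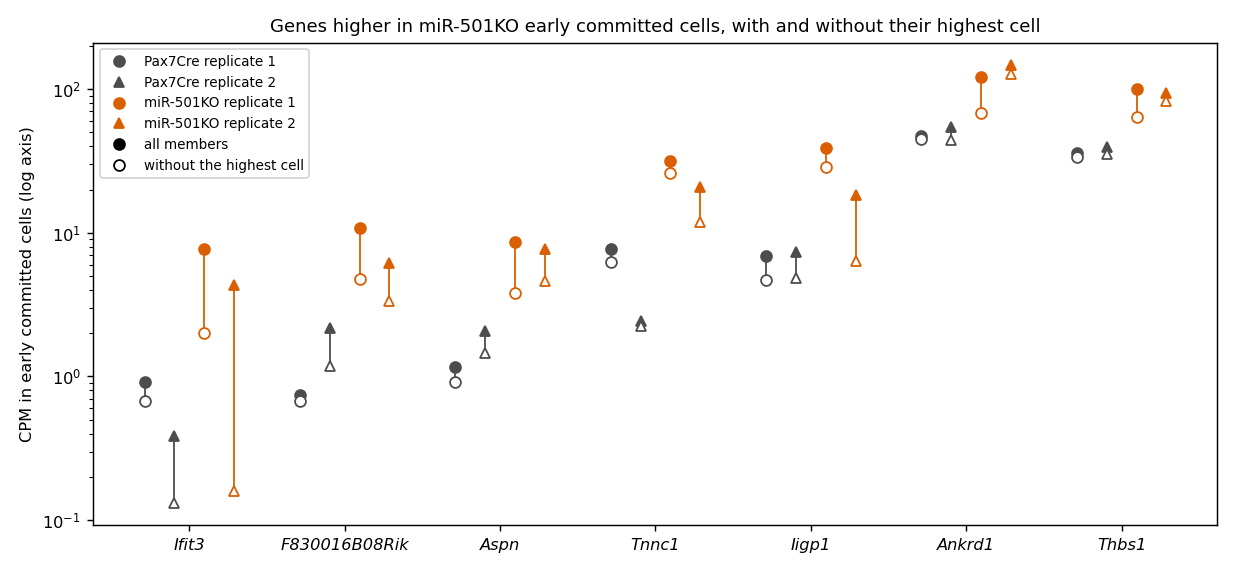
CPM (log axis) in early committed cells of the 7 genes called higher in miR-501KO, by library (circles, replicate 1 and triangles, replicate 2, grey for Pax7Cre and orange for miR-501KO). Filled points are sums over all cells and open points sums without the gene's highest cell in that library. Ifit3 in miR-501KO replicate 2 drops from 4.34 to 0.159 CPM, whereas Ankrd1 there goes from 148 to 128 CPM.

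Since replicates of a number share a run, the fit with the run as replicate block is given beside the count. The run 1 minus run 2 differences of the groups, however, correlated at only -0.035 over 11316 genes. With 4 libraries this fit has little spread of its own to estimate, so its p-values rest largely on the spread of all genes. The blocked fit called 60 genes higher (0.53%) and 4 lower (0.0353%) in miR-501KO, among them all 7. The higher ones include Mylpf, Mybph and Myh3, genes of the sarcomere limit, whose levels the choice of cells acted on. The interferon list then held 7 called genes (Ifit1, Ifit3, Isg15, Gbp3, Iigp1, Cxcl10 and Bst2), and that of other sarcomere genes 4 (Myom2, Tnnt3, Casq2 and Xirp1), all higher. The heat shock genes Hspa1a and Hspa1b and the matrix gene Dcn were also called higher. Both knockout libraries exceeded both controls in these 3, but they were picked as called higher, so this order is no separate support. Dcn was low, at 0.578 and 2.19 CPM in Pax7Cre and 3.84 and 4.49 CPM in miR-501KO. Without the block none of the 3 was called (edgeR adjusted p = 0.44 for Hspa1a, 0.13 for Hspa1b and 0.57 for Dcn). Mef2c and Fgf21 were called as well, but their groups overlapped. Mef2c was at 47.7 and 25.7 against 116 and 31.3 CPM, and Fgf21 at 3.88 and 3.34 against 2.49 and 21.1 CPM, where miR-501KO replicate 1 lay below both controls. The 4 lower genes were Cxcl2, Lyz2, Apoe and Dlk1. In Pax7Cre replicate 1, a single cell with 748 UMIs of the macrophage genes led Cxcl2, Lyz2 and Apoe. Lyz2, a lysozyme of macrophages, was at 45.4 CPM there and at 5.42 to 8.25 CPM in the other 3 libraries. Without each gene's highest cell, the blocked fit called 31 genes, all higher.

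Of the 16 interferon response genes tested, 2 were called and 15 had a positive log2 fold change (median 0.86, where all 11316 genes had -0.01). Their summed level was 611 and 628 CPM in Pax7Cre and 1156 and 774 CPM in miR-501KO. Ifitm3, the most abundant, was at 308 and 290 CPM against 528 and 398 CPM. B2m, the light chain of MHC class I, was at 130 and 178 against 246 and 158 CPM, and overlapped. Interferon genes were also present in other cells. Iigp1 was at 132, 195, 432 and 213 CPM in mural-like and Schwann-like cells and at 31.8, 41.0, 93.9 and 55.2 CPM in the remaining cells of Pax7Cre replicates 1 and 2 and miR-501KO replicates 1 and 2. Of 27 other sarcomere genes tested 22 were positive (median 0.20), and of 15 excitation and contraction genes 13 (median 0.18), with 0 called by edgeR in either. Of all 11316 genes, 5354 were positive. Among the genes of the sarcomere limit, Mylpf was at 332 and 164 CPM in Pax7Cre and 538 and 471 CPM in miR-501KO. Myh8 overlapped (5.94 and 4.50 against 6.71 and 3.56 CPM). Whether the sarcomere and contraction lists follow the sarcomere sum of the chosen cells was not tested. Notch pathway genes were positive in 13 of 15 (median 0.25) and fusion genes in 15 of 24 (median 0.13), also with 0 called. The Notch list summed to 414 and 444 CPM in Pax7Cre and to 574 and 426 CPM in miR-501KO, so it was higher in miR-501KO replicate 1 and the groups overlapped. The cell cycle lists lay near 0 (medians -0.04 for G1/S and -0.08 for G2/M). Myod1 was at 218 and 239.6 CPM in Pax7Cre and 261 and 354 CPM in miR-501KO (log2 fold change 0.40, SE 0.19, edgeR adjusted p = 0.999).

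RNA of other cell types was low, and its part in these results was not tested. The 17 macrophage markers summed to 102 and 27.0 CPM in Pax7Cre and 39.9 and 18.1 CPM in miR-501KO, and 2 of the 10 tested had a positive log2 fold change (median -0.98). Ptprc, which encodes CD45, was at 0 in 3 of the 4 libraries. Mural markers summed to 51.8 and 30.9 against 101 and 31.6 CPM, Schwann markers to 19.2 to 29.2 CPM, endothelial markers to 1.54 to 4.41 CPM with Tie1 at 0 throughout, and erythroid markers to 1.32 to 3.41 CPM. Of the mural markers 4 of 4 tested had a positive log2 fold change (median 0.50), and of the fibroblast and tenocyte markers 5 of 5 (median 0.31), with 0 called by edgeR in either. The 13 fibroblast and tenocyte markers summed to 716 and 703 against 919.6 and 804 CPM, of which Col1a2 made 458 to 599 CPM, and Pdgfra stood at 0.0825 to 0.384 CPM. Aspn was at 559.8, 581, 563 and 390.2 CPM in mural-like and Schwann-like cells, in library order.

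Sites for miR-501-3p were looked for in the 3′ UTRs of the GENCODE basic annotation, matched by gene identifier. None of the 7 markers and none of the 7 called genes held a match of at least 7 bases to the seed. Such a match was present in 13.9% of the 10763 tested genes with a 3′ UTR, so its absence from 7 genes carries little weight. Esrrg, the estrogen-related receptor that the study places under the miRNA, held an 8-base site at bases 1129 to 1136 of its 3247-base 3′ UTR, and Clcn5 a 7-base site at bases 1001 to 1007 of 5919. Both are printed with the match in capitals.
Esrrg site: gttgaagggaaGGTGCATAttaccacggat
Clcn5 site: attagcatcccGGTGCATttctttgaaaag
Esrrg was close to absent in early committed cells, at 0.0825 and 0.257 CPM in Pax7Cre and at 0 in both knockout libraries, and at 1.55 to 4.55 CPM in late committed cells. Esrra, its relative, was at 25.9 to 29.4 CPM. Of the genes tested, 10763 had a 3′ UTR, and the 1501 with a match had a median log2 fold change of 0.01, against -0.02 for the 9262 without. A positive log2 fold change was found in 51.5% of the 1501 and in 46.4% of the 9262. None of the 1501 and 7 of the 9262 were called, and with the run as replicate block 5 and 49 were called higher. The 209 with an 8-base match had a median of -0.00. These medians and shares carry no test.

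Finally, the genotype effect was compared between early and late committed cells by an interaction with the library as block. It differed for 8 of 11174 genes, all with a log2 fold change of the knockout that was higher in early than in late committed cells (0.0716%, with 0.0% in the other direction and 492 genes at an unadjusted p under 0.05 by edgeR). Gal, which encodes the neuropeptide galanin, was at 153, 149, 121 and 224 CPM in early and at 289, 246, 18.2 and 31.4 CPM in late committed cells of Pax7Cre replicates 1 and 2 and miR-501KO replicates 1 and 2. The controls and knockouts overlapped in early cells and were far apart in late ones (difference of the log2 fold changes 3.61, SE 0.18, edgeR adjusted p = 2.8e-07). In late cells of Pax7Cre replicate 1, 54.3% of the Gal UMIs lay in a single cell, and 24 of 77 cells held any. Without the highest cell, early cells were at 132 and 78.3 CPM in Pax7Cre and 91.1 and 134 CPM in miR-501KO. Tmem176b went from 538.98 and 478 to 437 and 334 CPM in late cells while early cells were at 92.9, 71.1, 158 and 98.3 CPM (1.01, SE 0.15, edgeR adjusted p = 0.028). Timp1, an inhibitor of matrix metalloproteinases, was at 70.7, 93.8, 101 and 94.0 CPM in early and 63.9, 74.5, 30.8 and 33.0 CPM in late cells (1.37, SE 0.20, edgeR adjusted p = 0.028). Tnnc1 and Thbs1 were called in both comparisons, and the genes of this paragraph were named after their values were seen. Late committed cells numbered 19 to 77 per library. On simulated counts this test recovered 38% of 200 genes with a 2-fold interaction among 11174, with 4 false calls.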

How the data were processed

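Droplet 3′ single-cell libraries of sorted MPs were made from 4 pools of 3 mice. The authors deposited raw UMI counts per gene and barcode, without normalization. Per the file headers these counts came from Cell Ranger 6.0.2, another version than the study's methods name. The submitters' processing notes list GRCm39 and Seurat, and the labels and methods name different versions of the kit and both single-cell and single-nucleus RNA. Coordinates in the text are GRCm38.p6 and come from RefSeq tables, matched by symbol. All libraries listed 25827 genes.

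Cells were selected as given at the start. No doublet caller was run. Early committed cells with over 2 times the median UMIs of their library numbered 11, 3, 15 and 16, and the alternatives leave out the deepest 5%. The members, the 27 gene lists and the tests were chosen with earlier results of these data known. UMIs were summed per library, filtered by filterByExpr and tested in edgeR 4.0.16 (TMM, quasi-likelihood, Benjamini-Hochberg adjustment) in R 4.3.3 with limma 3.58.1. The interaction used 8 sums. Shares were compared by exact permutation tests over 4 libraries. The libraries were the replicates, with 2 pools per group. In edgeR the spread of each gene is moderated by that of all genes, so its p-values do not rest on these pools alone. The blocked fit and the interaction use the spread left after run or library is taken out. On simulated data the genotype test recovered 78.5% of 200 genes changed 2-fold and 93.5% changed 4-fold. It also made 11 and 18 false calls among 11316 genes, where the real data gave 7 calls. The simulated counts were drawn per library, so they held no single cells that dominate a gene.

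Named genes were the 7 markers, the genes of the limits, up to 4 of the most abundant members of each list with those called, up to 5 called genes per direction, and up to 8 genes per direction against each neighbouring group. The same numbers were used for tertiles, afterwards, and Neb, Eno3, Id3, Notch2 and the defining markers at or near 0 (Ptprc, Tie1, Pdgfra) were added after their values were seen. A gene that the rule names is not reported here. Per the labels, equal replicate numbers mark a shared run, and the run 1 minus run 2 differences of the groups correlated at -0.035 over 11316 genes. Alternatives were the run as replicate block, RLE factors, DESeq2 1.42.0, no filter, other gate limits, thinned cells, removal of each gene's highest cell, no Cd74 limit, and each library left out.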

Additional observations from a re-analysis of the deposited data

Results flagged for a closer look

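The genotype effect differed between early and late committed cells for 8 genes by the interaction test. In each the log2 fold change of the knockout was higher in early than in late committed cells, which includes genes that were lower in the knockout in late cells. The differences of the log2 fold change were 3.998 for Ankrd23, 3.61 for Gal, 2.36 for Tnnc1, 1.98 for Ctrb1, 1.37 for Timp1, 1.33 for Thbs1, 1.15 for R3hdml and 1.01 for Tmem176b. For Gal, Ctrb1, Timp1, R3hdml and Tmem176b the knockout libraries lay below the controls in late committed cells. Ankrd23, a stress-responsive ankyrin repeat gene of muscle, was at 0.330 and 0.257 CPM in early committed cells of Pax7Cre and 6.33 and 1.39 CPM in those of miR-501KO, and at 26.2 and 73.8 against 39.9 and 21.1 CPM in late ones. A single cell held 81.8% of its UMIs in the early committed cells of miR-501KO replicate 1, where the level without that cell was 1.19 CPM, and a single cell held 56.7% in the late cells of Pax7Cre replicate 2. Ctrb1, a chymotrypsinogen gene, was at 43.9 and 29.1 against 60.4 and 61.6 CPM in early and 117 and 141 against 72.8 and 36.1 CPM in late cells. R3hdml was at 73.1 and 74.4 against 92.8 and 89.2 CPM in early and 173 and 233 against 107 and 114 CPM in late cells. Late committed cells were few, with 19 in Pax7Cre replicate 2, and without that library 3 genes were called. The part of cell number in these calls was not tested.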

How the results depend on the processing

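The count of 7 genes that differed between genotypes became 64 with the run as replicate block, including Mylpf, Mybph and Myh3 of the sarcomere limit. It became 103 without the filter on low counts, 4 without the 5% deepest cells and 0 with no limit on Cd74. With the replicate block it was 63 at 10000 or more UMIs per cell and 15 with thinned cells. Without each gene's highest cell it was 0, or 31 with the replicate block. Leaving out 1 library gave 4 (without miR-501KO replicate 1) to 65 (without Pax7Cre replicate 1), with 46 without Pax7Cre replicate 2 and 39 without miR-501KO replicate 2. The lone library of a group is then assumed to vary like the other group. The 8 genes of the interaction became 79 without the filter, 4 without cells with 2 macrophage UMIs, 1 without the 5% deepest cells and 15 without the highest cells, and 3 (without Pax7Cre replicate 2) to 66 (without miR-501KO replicate 2) with 1 library left out, with 50 without Pax7Cre replicate 1 and 33 without miR-501KO replicate 1. Thinning to 5000 UMIs called 9 genes between genotypes, of which 3 were shared, and 8 in the interaction, of which 2 were shared. The share with both fusion genes differed by -12.2 to 0.884 points with 1 library left out. Log2 fold changes of uncalled markers turned direction there, with ranges of -0.22 to 0.047 for Fndc5, -0.44 to 0.17 for Actc1 (0.0011 without Pax7Cre replicate 1), -0.29 to 0.065 for Mymx, -0.12 to 0.11 for Mymk and -0.019 to 0.10 for Rbm24. Mymk also turned with Myog at least 5 (0.018), a cycle sum below 1 (0.018), without cells with 2 macrophage UMIs (0.0059) and at least 10000 UMIs (0.0099, or 0.0081 with the block), and Rbm24 with a sarcomere sum below 50 (-0.014), without the deepest cells (-0.010) and with no limit on Cd74 (-0.19). With the replicate block, none of these markers was called either. The causes were not tested. Low counts of the called genes and 2 libraries per group limit all of these results.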
